A study of Arabidopsis thaliana with 24 samples.

Results

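In roots of Arabidopsis thaliana seedlings, 42 genes were lower under brassinolide and L-kynurenine together (BL+Kyn) while staying near mock under brassinolide alone (BL) or L-kynurenine alone (Kyn). They were chosen on the log2(normalized count + 1) scale from the 24 h and 48 h libraries, among 16095 genes with a mean normalized count of at least 20 (of 40246 features in the deposited table). The difference from mock, averaged over both times, had to be at most -1.0 in BL+Kyn and between -0.3 and 0.3 in BL and in Kyn. Since those libraries chose the genes, their 24 h and 48 h values are given as a description with no test. Tests compared groups of 12 h libraries, whose differences the choice did not use. The mean count that filtered genes was taken over all 24 libraries. These 24 libraries also gave the tests a shared estimate of the spread.

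Brassinolide is a brassinosteroid, a steroid hormone perceived by receptor kinases of the BRI1 type, and it promotes cell expansion and tunes the size of the root meristem. L-kynurenine inhibits TAA1 and its relatives, the aminotransferases that open the main route from tryptophan to auxin. Auxin sustains the stem cell niche of the root tip, in part through PLETHORA transcription factors, and promotes root hair elongation, in part through bHLH factors of the RSL family.

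Seedlings of the wild-type accession Col-0 were moved at an age of 3 days from a common sucrose-containing medium to 0.8 nM BL plus 4 µM Kyn, to 0.8 nM BL, to 4 µM Kyn or to mock. Roots, cut a short way from the tip, were harvested after 12, 24 or 48 h. This gave 12 groups and 24 libraries, with 2 libraries per group described in the series as biological replicates. Transcripts were counted from their 3' ends with CEL-Seq2, a method that tags polyadenylated RNA with barcoded primers, and values are the normalized counts that the authors deposited.

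Depth ran from 6322167 to 31365110 reads per library, and from 8843876 to 24525245 reads at 12 h. At 12 h replicate 2 of BL and replicate 2 of Kyn held transcripts of green tissue. The median of 12 photosynthesis genes lay 4.17 and 3.66 above the mock mean in these libraries on the log2 scale, against -1.18 to 0.20 in the other 6 libraries of that time. Root markers were measurable throughout, with 12 of 12 root hair genes, 13 of 13 meristem genes, 7 of 8 endodermis genes and 2 of 4 root cap genes reaching a mean of 5. In RNA of these cut roots, fewer cells of a type and less RNA per cell cannot be told apart.

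The combined effect that chose the members ran from -2.18 to -1.01, with a median of -1.11, while their BL effects ran from -0.29 to 0.22 and their Kyn effects from -0.29 to 0.30. They were 0.377% of the 11138 genes whose single effects lay within the bounds, among which 112 others had a combined effect of at least 1.0. RSL2, a bHLH factor of root hair growth, had the lowest combined effect. Just inside the threshold were the thaumatin-like ATLP-1, the phospholipase PLA2-BETA and the plastid protein FtsHi1, all at -1.01. Just outside were AT1G29270, which missed -1.0 narrowly, the ribosome-associated RACK1C_AT at -0.99 and AT2G15690 at -0.99.

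Most members were lower at 48 h than at 24 h, relative to mock of the same time, on the mean of 2 libraries. Against the mock mean, the median over members was -1.56 in BL+Kyn 48 h replicate 1 and -0.93 in replicate 2. At 24 h it was -0.90 and -1.10, so the lower level at 48 h rested on replicate 1. The BL+Kyn difference was at most -1.0 in 34 members at 48 h, in 22 at 24 h and in 6 at 12 h. Both BL+Kyn libraries lay below both mock libraries for 40 members at 48 h (28.1% of all genes tested did so) and for 37 at 24 h (31.7%), times that the choice used. In 23 members the 4 BL+Kyn libraries of 24 h and 48 h all lay below the 12 other libraries of those times, as did 5.68% of all genes tested. GSTU28, a glutathione transferase, had the highest difference of the members at 24 h, -0.00, and -2.20 at 48 h. EXPA15, an expansin that loosens cell walls, ran the other way, with -1.57 at 24 h and -0.82 at 48 h.

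**Figure D1:**
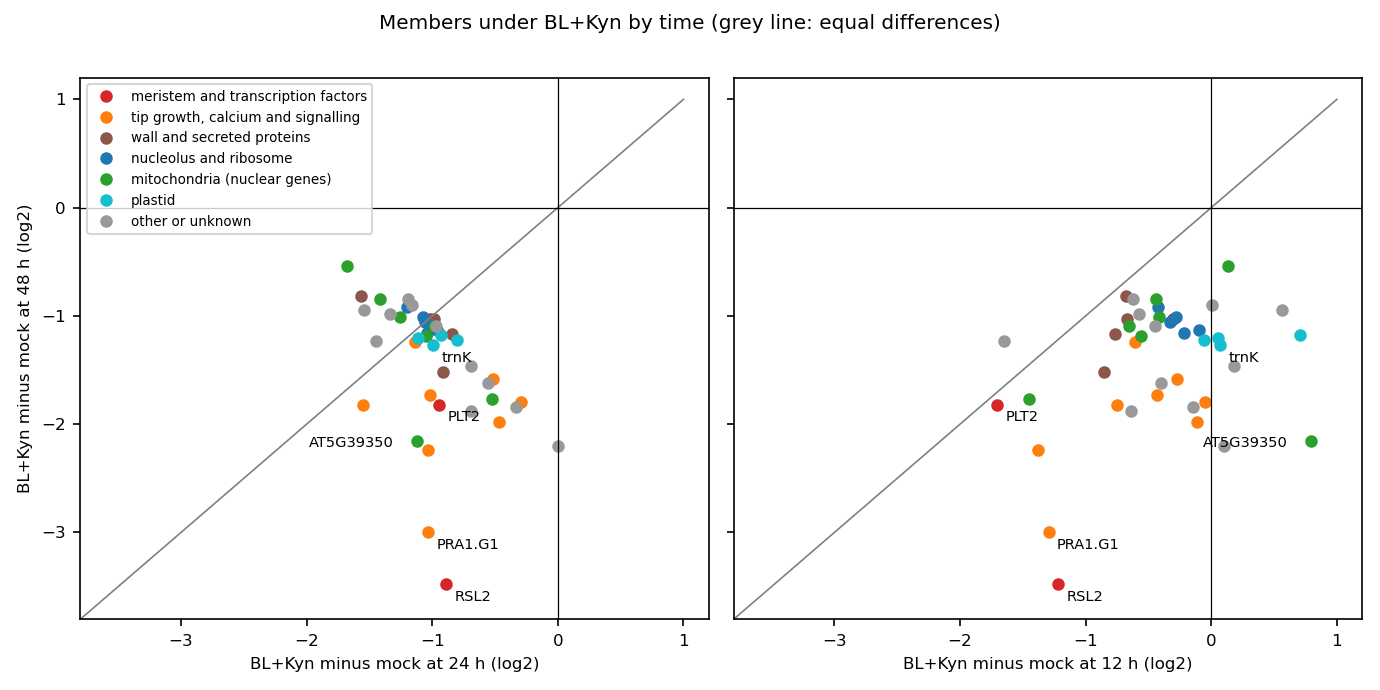
Difference of BL+Kyn from mock (log2) at 48 h on the vertical axis, against the difference at 24 h (left) and at 12 h (right) on the horizontal axis, with 1 point per member coloured by role and a grey line at equal differences. At 24 h and 48 h, which chose the members, points lie between -0.00 and -3.48, with 31 of 42 lower at 48 h than at 24 h, and at 12 h 33 of 42 lie below 0. Each difference is between means of 2 libraries, and at 48 h BL+Kyn replicate 1 was lower than replicate 2 in 36 members.

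"Near mock under either compound" described the average over times more than each time. At 24 h or at 48 h singly, 32 members had a BL or Kyn difference outside -0.3 to 0.3, and 3 met all the bounds at both times. In BL 17 were outside at 24 h, 14 of them below -0.3, and 12 at 48 h, 5 of them below. In Kyn 10 were outside at 24 h, 6 of them below, and 11 at 48 h, 8 of them below. The median over members in the BL libraries of 24 h was -0.21 and -0.15 against the mock mean. The list also leaned on single libraries. In 36 of 42 members BL+Kyn 48 h replicate 1 was lower than replicate 2, against 12 at 24 h and 10 at 12 h. Without replicate 2 of that group the same rule found 179 genes, including 39 of the 42. Without replicate 1 of that group it found 27 genes, including 18. Without BL+Kyn 24 h replicate 1 it found 84 genes, including 39. Leaving out each of the 16 libraries in turn kept 7 members in every list, namely PLT2, AT3G61300, AT5G39350, EXPA15, trnK, AT5G39840 and AT5G54910. With the rule applied to replicate 1 alone and to replicate 2 alone, 14 members were in neither list, PLT2 and AT3G61300 among them. In both lists were 7 members, not the same 7.

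**Figure D2:**
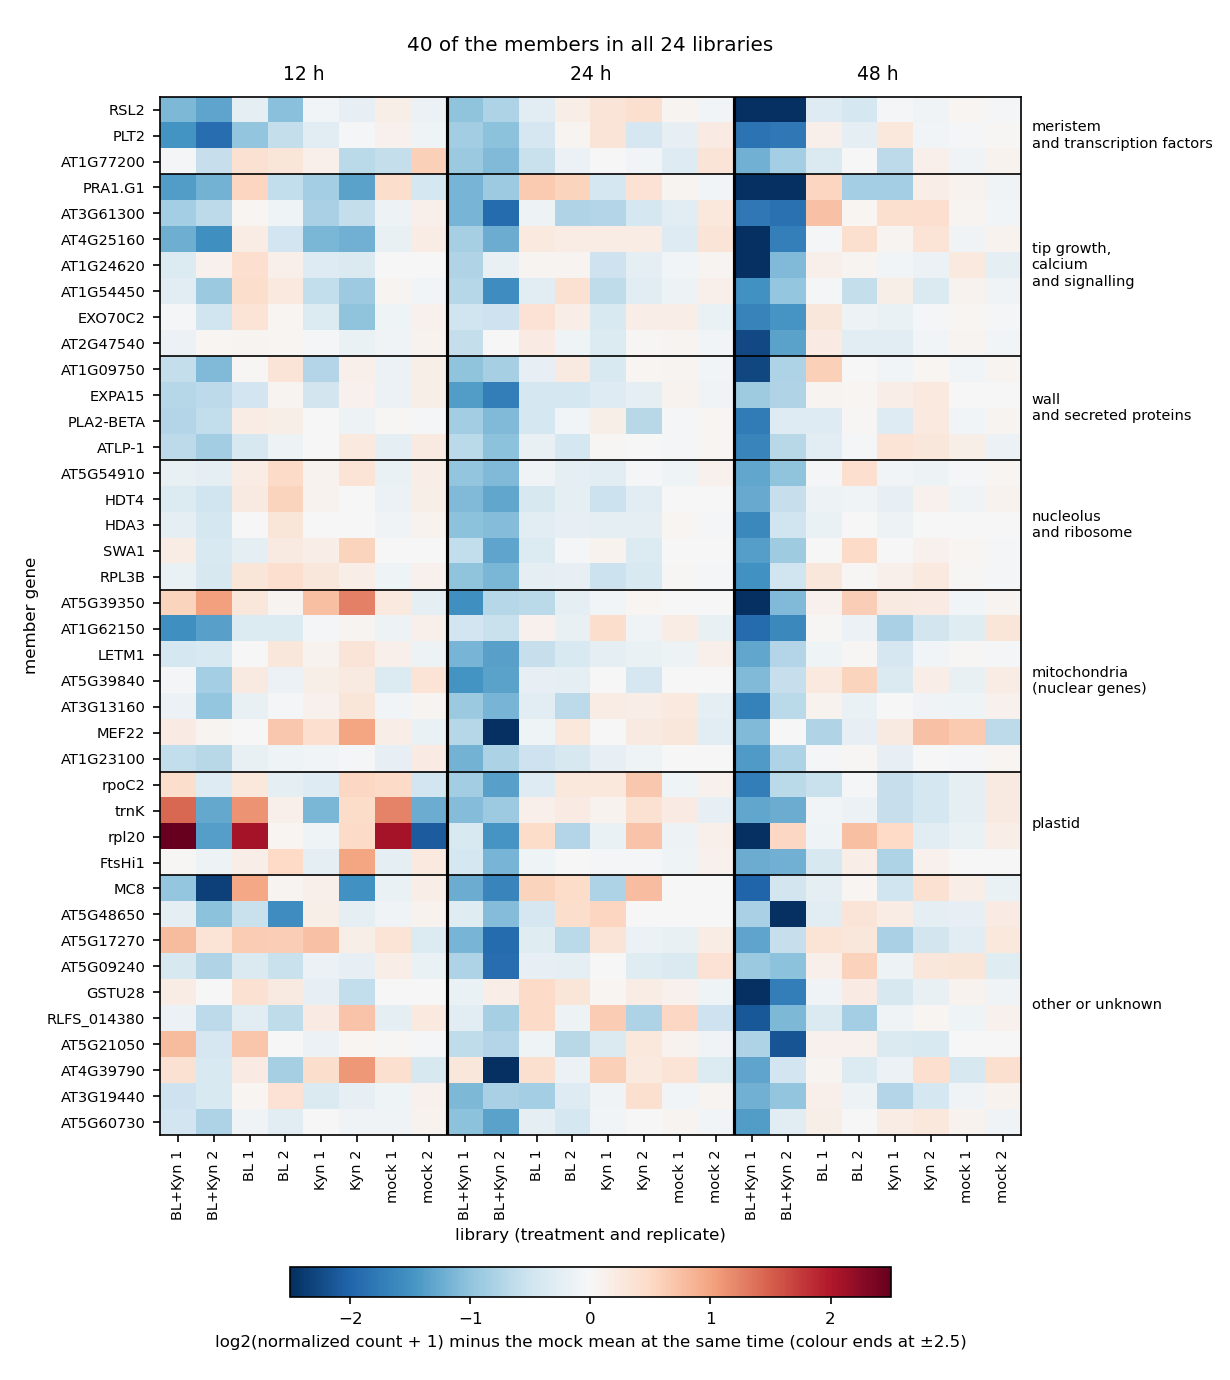
Heat map of 40 members (rows, grouped by role) in the 24 libraries (columns, by time, then treatment and replicate), coloured by log2(normalized count + 1) minus the mock mean at the same time. The BL+Kyn columns are blue at 24 h and 48 h for nearly every member, and at 12 h most strongly for PLT2, MC8, AT1G62150, AT4G25160, PRA1.G1 and RSL2, while the plastid genes trnK and rpl20 vary between replicates at 12 h.

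At 12 h, whose differences the choice did not use, 6 of the 42 members fell in BL+Kyn (limma, adjusted p under 0.05) and 0 rose. Of all 18948 genes tested, 2.47% fell and 2.55% rose. The 6 were PLT2 and RSL2, transcription factors of the root meristem and of root hairs, the U-box kinase gene AT4G25160, the expansin gene EXPA15, the GroES-like chaperonin gene AT1G23100 and AT1G62150 of the mitochondrial transcription termination factor family. Over all members the median difference at 12 h was -0.42, against -0.01 over all genes tested. Below 0 lay 33 of 42 members, beside 50.6% of genes with a mean of at least 20. At an unadjusted p under 0.05 there were 14 members, all lower, against 18.1% of all genes in either direction. Both BL+Kyn libraries lay below both mock libraries for 23 members (26.1% of all genes) and above both for 2 members (24.4%). The standard error of a member's difference had a median of 0.33, so most single differences of the size of the median could not be told from 0 at 12 h.

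These calls rested on 2 libraries a group. Without BL+Kyn replicate 1, without BL+Kyn replicate 2 or without mock replicate 2 of 12 h, 1 call was left, that of PLT2. Without mock replicate 1 there were 2, PLT2 and AT1G23100. The median over members was -0.63 without BL+Kyn replicate 1 and -0.20 without BL+Kyn replicate 2.

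Some marker lists of other cell types had medians above mock in the same libraries. The 7 endodermis genes had a median BL+Kyn difference of 0.56 at 12 h (0.39 to 0.95), with 0 called by limma and 5 at an unadjusted p under 0.05, and a median of 0.80 over 24 h and 48 h. Their summed normalized counts at 12 h were 23666 to 28344 in BL+Kyn, 15542 to 21662 in BL, 16354 to 22497 in Kyn, and 17573 to 18887 in mock, so that BL+Kyn lay above the other groups. At 24 h the sums were 24080 to 25159 in BL+Kyn, against at most 14164 in mock. At 48 h the BL+Kyn libraries stood far apart, at 16437 and 29054, the lower one close to mock (14588 to 16316). The 3 pericycle genes and 6 phloem genes had medians of 0.50 (-0.55 to 3.04) and 0.14 (-0.56 to 1.26) at 12 h, with 0 called. Over the later times their medians were 1.05 and 0.71. In Kyn at 12 h they were 0.49 and -0.15. Summed pericycle counts at 12 h overlapped, with 440 to 552 in BL+Kyn and 365 to 506 in mock. The 6 xylem genes had a median BL+Kyn difference of -0.09 at 12 h (-0.57 to 0.46) and 0.08 over the later times. The part of these markers in the members' values was not tested.

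Under BL alone 0 members were called at 12 h in either direction by limma, by edgeR and by DESeq2, against 0.0528% of all genes lower and 0.0422% higher (limma). At an unadjusted p under 0.05 there were 2 of 42 members with each tool, no more than the background of 6.23% of all genes by limma. Their limma differences were -0.79 for PLT2 and -0.64 for RSL2. Under Kyn alone 0 members were called by limma and by edgeR and 1 by DESeq2, AT4G25160, against 1.03% of all genes lower and 0.253% higher with limma. Both BL libraries lay below both mock libraries for 7 members (17.4% of all genes) and above for 8 (17.9%), and both Kyn libraries for 9 (20.8%) and 6 (20.7%). In Kyn at an unadjusted p under 0.05 there were 5 by limma, 6 by edgeR and 5 by DESeq2, near the background of 9.99% of all genes by limma. The member median was 0.15 in BL and -0.05 in Kyn, with standard errors as wide as those in BL+Kyn, so these counts do not show that the single treatments left the members at mock level.

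**Figure D3:**
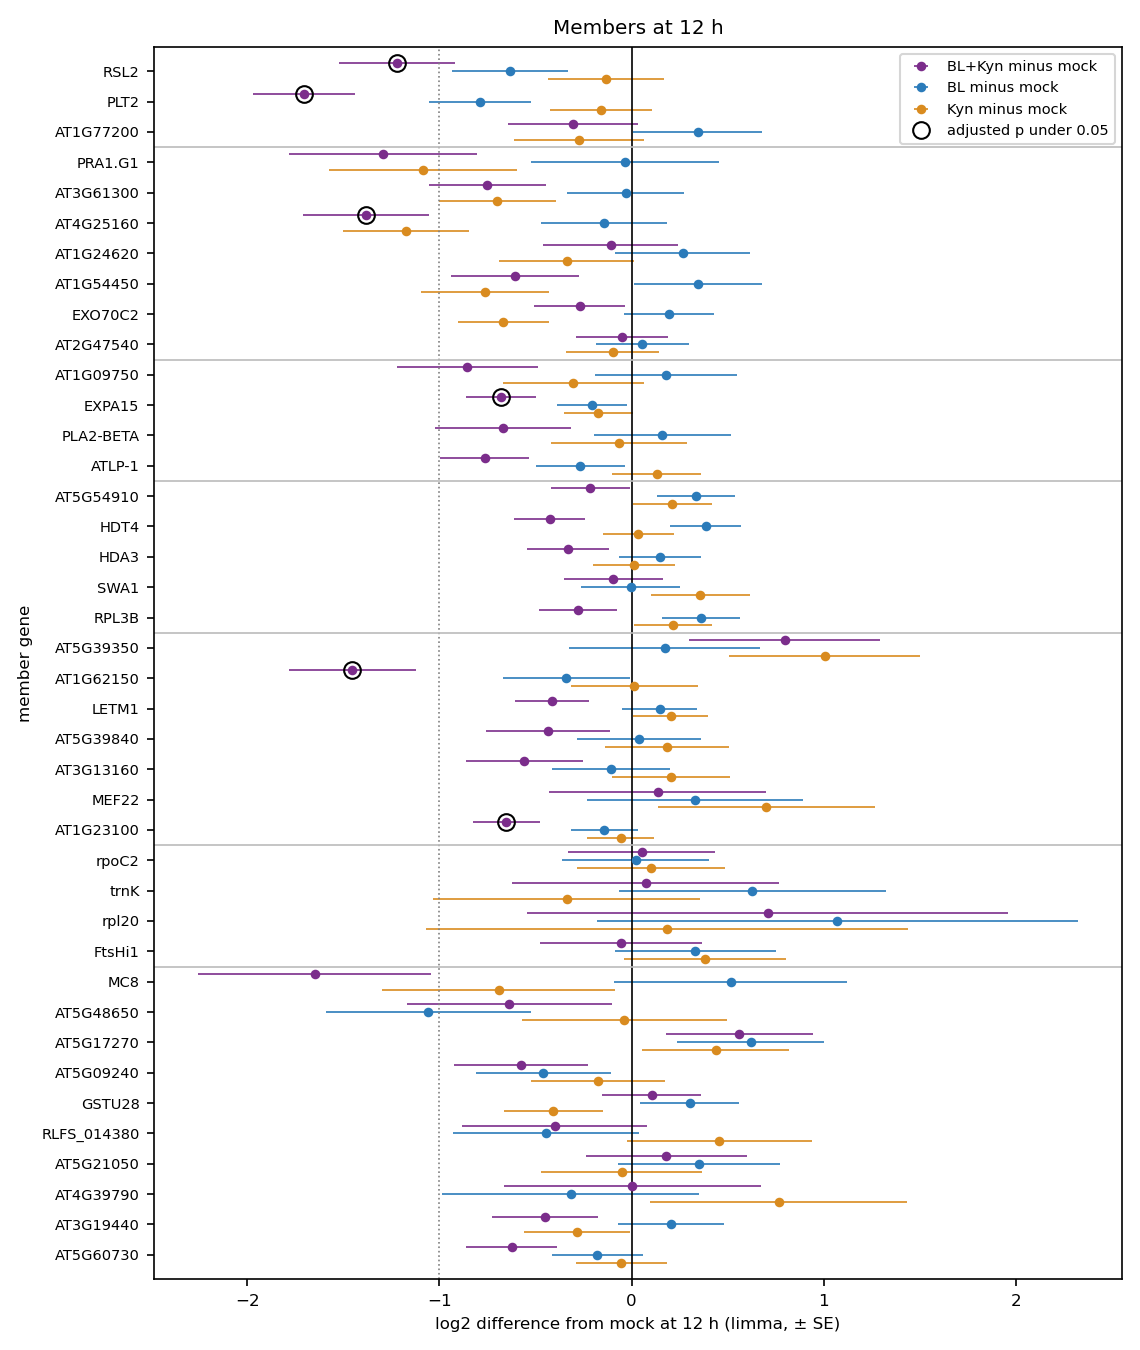
Differences from mock at 12 h (horizontal axis, log2, limma estimate ± SE, 2 libraries a group) for 40 members (rows, by role) in BL+Kyn, BL and Kyn, with rings on adjusted p under 0.05. The 6 ringed points are all BL+Kyn and run from -1.70 (PLT2) to -0.65 (AT1G23100), and the dotted line marks -1.0.

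Among transcription factors, PLT2, RSL2 and AT1G77200 were members. PLT2 (chr1:18977284-18980618, TAIR10) is an AP2-type PLETHORA factor required for the stem cell niche, transcribed where auxin accumulates. At 12 h PLT2 had normalized counts of 44.8 and 33.3 in BL+Kyn, 64.4 and 84.3 in BL, 106 and 124 in Kyn, and 138 and 119 in mock. Both BL+Kyn libraries were below all 6 others, and both BL libraries were below both mock libraries. PLT2 thus fell by 1.70 on the log2 scale (SE 0.26, limma adjusted p = 0.000556), a 3.26-fold lower level, and it was called in each of the 18 alternative fits, with adjusted p from 1.48e-05 to 0.0200. Against Kyn at 12 h it fell by 1.55 (SE 0.26, adjusted p = 0.0103, limma). At 24 h PLT2 stood at 66.8 and 59.5 in BL+Kyn, 91.4 and 129 in BL, 152 and 90.9 in Kyn, and 106 and 141 in mock. At 48 h it stood at 28.1 and 29.1 in BL+Kyn, 113 and 86.7 in BL, 125 and 98.7 in Kyn, and 101 and 106 in mock. At neither time did a BL+Kyn library reach the lowest library of another treatment.

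RSL2 (chr4:16239363-16241137) acts with other bHLH factors to drive root hair elongation. At 12 h it had 153 and 133 in BL+Kyn, 285 and 161 in BL, 318 and 290 in Kyn, and 371 and 300 in mock. BL+Kyn was below the others, with BL replicate 2 close above it. It fell by 1.22 (SE 0.30, limma adjusted p = 0.0235). At 24 h the values were 118 and 140 in BL+Kyn, 196 and 269 in BL, 298 and 314 in Kyn, and 251 and 228 in mock. At 48 h they were 21.6 and 55.5 in BL+Kyn, 320 and 292 in BL, 387 and 374 in Kyn, and 412 and 384 in mock. The difference at 48 h, -3.48, was the lowest of any member at any time.

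RSL2 was the single member among 12 listed root hair genes. At 12 h, 10 of the 12 fell in BL+Kyn (median -2.10) and 9 of the 12 fell in Kyn (median -1.90), beside 2.47% and 1.03% of all genes, in comparisons that share the mock libraries. In BL 0 of the 12 were called by limma (1 at an unadjusted p under 0.05, median 0.08). RSL2 had -0.13 (SE 0.30) in Kyn, whereas RSL4, a related bHLH factor, had -1.37 (SE 0.33, limma adjusted p = 0.0464). The difference between these genes was not tested. RHD6, which acts upstream of both, had 0.22 in BL+Kyn and 0.38 in Kyn, and was not called. The members named for tip growth below had a median BL+Kyn difference of -0.52 at 12 h (-1.38 to -0.05). The part of the root hair list in their values was not tested.

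PLT2 was likewise the single member among 13 listed meristem and stem cell niche genes. In BL+Kyn at 12 h 4 of the 13 fell, PLT2, AIL6, MGP and RGF2, beside 2.47% of all genes, with a list median of -0.36. In BL at 12 h these 4 genes had -0.79, -1.48, -0.53 and -0.35, in that order, none called by limma. AIL6 was thus lower in BL than in BL+Kyn (-1.25). In Kyn at 12 h the 4 had -0.16, 0.31, -0.19 and -0.97, also not called. The other PLETHORA genes of the list had combined effects over 24 h and 48 h of -0.79 (PLT1), -0.61 (AIL6, with -0.90 in BL) and -1.53 (BBM, with -0.81 in BL and -0.48 in Kyn). AT1G77200, a DREB-type AP2 gene, was spread widely at 12 h, with 189 and 131 in BL+Kyn against 129 and 294 in mock, and was not called.

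The 300 bases before the annotated starts of PLT2 and RSL2 are shown because both transcription factor genes fell at 12 h. The sequences are read 5' to 3' on the strand of the gene from RefSeq's TAIR10.1 assembly, at chr1:18976876-18977175 (plus strand) for PLT2 and chr4:16241170-16241469 (minus strand) for RSL2. Capitals mark the single match among 12 motifs searched, in both cases the GATA-type AGATAT on either strand.
PLT2: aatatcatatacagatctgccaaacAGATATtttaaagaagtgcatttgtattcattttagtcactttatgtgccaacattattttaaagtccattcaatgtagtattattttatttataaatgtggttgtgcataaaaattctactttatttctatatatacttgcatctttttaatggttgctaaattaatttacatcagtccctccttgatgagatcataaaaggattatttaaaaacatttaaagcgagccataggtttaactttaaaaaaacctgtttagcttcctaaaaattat
RSL2: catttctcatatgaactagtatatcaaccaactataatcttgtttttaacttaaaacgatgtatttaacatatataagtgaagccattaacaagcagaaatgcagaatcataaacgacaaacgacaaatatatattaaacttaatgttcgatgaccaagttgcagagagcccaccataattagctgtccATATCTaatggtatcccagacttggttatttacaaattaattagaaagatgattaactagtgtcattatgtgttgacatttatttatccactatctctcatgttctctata
Neither window held the auxin response elements TGTCTC or TGTCGG or the brassinosteroid response element CGTGCG, which says only that these letters are not in these windows.

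**Figure D4:**
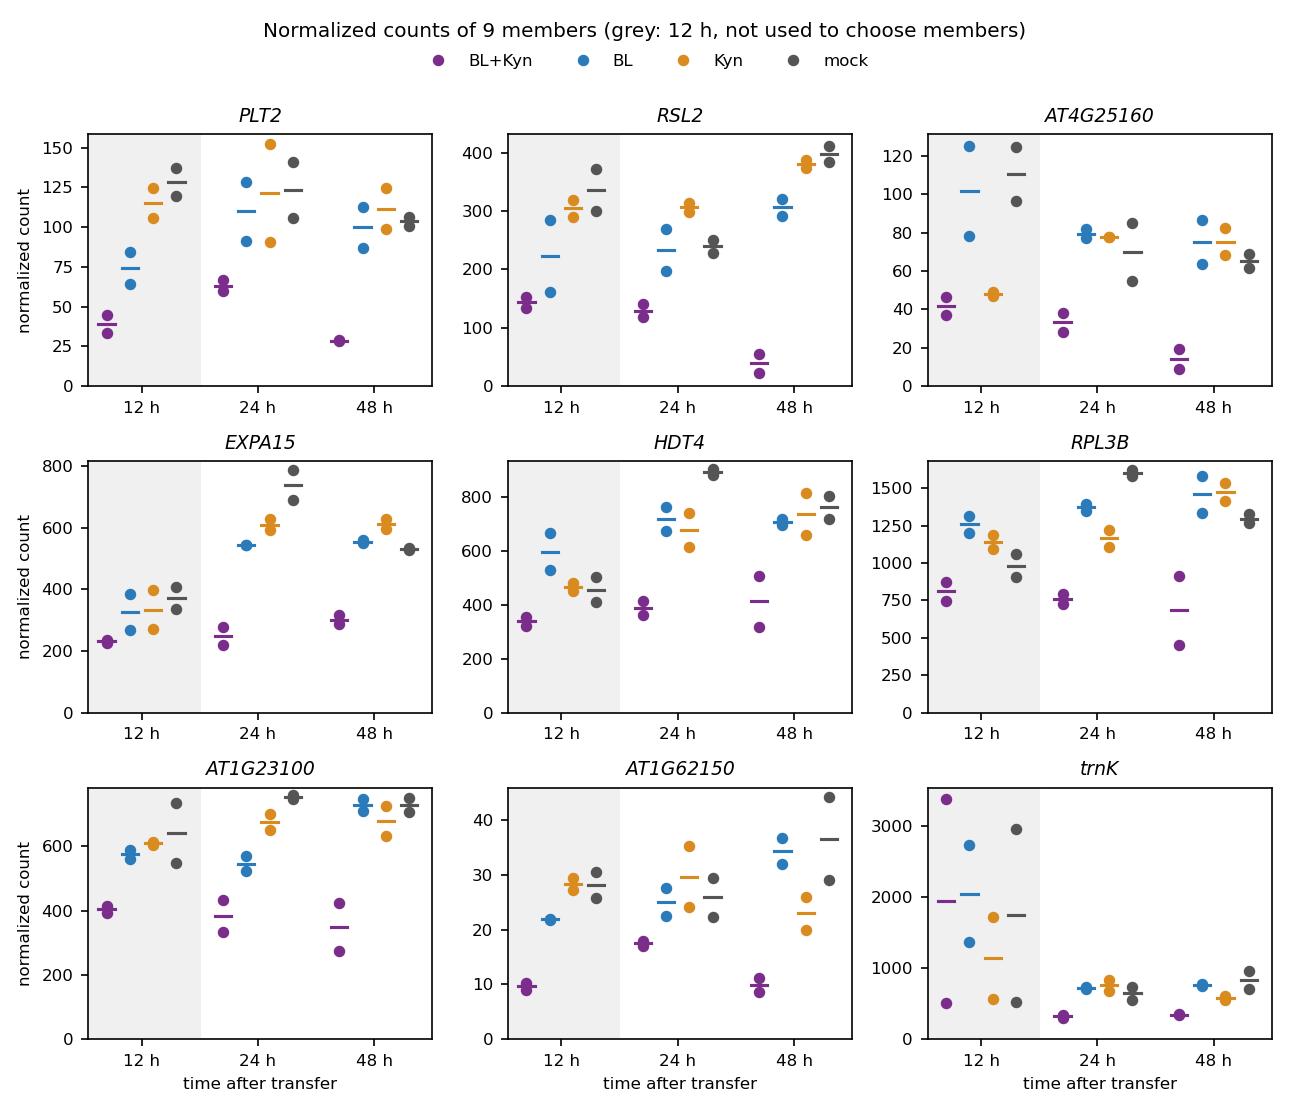
Normalized counts (vertical axes, linear, from 0) of 9 members at 12, 24 and 48 h (horizontal axes), with a point for each of 2 libraries and a bar at their mean, in the order BL+Kyn, BL, Kyn and mock. PLT2, RSL2, AT4G25160, EXPA15, AT1G23100 and AT1G62150 fell in BL+Kyn at 12 h (grey, limma calls). HDT4 and RPL3B lay below mock at 12 h without being called, and further below it at 24 h. In BL+Kyn at 12 h trnK spanned 511 to 3385.

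Proteins of calcium signalling, membrane traffic, the exocyst and hair walls gave 8 members, a grouping made from annotations after the values were seen. The group had a median BL+Kyn difference of -0.52 at 12 h, -1.02 at 24 h and -1.81 at 48 h. AT4G25160 (chr4:12903191-12907338) encodes a kinase with a U-box, a domain of ubiquitin ligases. At 12 h it had 46.2 and 37.2 in BL+Kyn, 125 and 78.2 in BL, 49.0 and 46.8 in Kyn, and 96.4 and 125 in mock. Both Kyn libraries lay close above the BL+Kyn libraries and below both mock libraries, while BL overlapped mock. In BL+Kyn AT4G25160 fell by 1.38 (SE 0.33, limma adjusted p = 0.0181), and the Kyn difference was -1.18 (SE 0.33, adjusted p = 0.106). At 24 h it had 38.2 and 28.3 in BL+Kyn, 81.7 and 77.5 in BL, 78.0 and 77.5 in Kyn, and 54.8 and 85.3 in mock, so that Kyn overlapped mock there. At 48 h BL+Kyn had 8.64 and 19.4, BL 63.4 and 86.7, Kyn 68.2 and 82.5, and mock 61.8 and 69.0.

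The 5 members with an unadjusted p under 0.05 in Kyn at 12 h, a number near the background of 9.99% of all genes, were placed in this group by hand. Their limma differences in Kyn were -1.18 (AT4G25160), -1.09 (the Rab acceptor gene PRA1.G1), -0.76 (the EF-hand gene AT1G54450), -0.70 (the C2-domain gene AT3G61300) and -0.67 (the exocyst subunit gene EXO70C2). None passed adjustment in this fit. PRA1.G1 had 16.5 and 19.2 in BL+Kyn, 66.0 and 29.3 in BL, 24.8 and 17.4 in Kyn, and 61.7 and 33.0 in mock at 12 h. By 48 h it had 4.32 and 2.77 in BL+Kyn against 36.8 and 32.8 in mock, with as few as 2 reads in a library. EXO70C2, of a subunit known from pollen tube growth, stood at 195 and 142 in BL+Kyn against 186 and 217 in mock at 12 h, and at 60.5 and 69.3 against 203 and 189 at 48 h.

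Late timing marked 2 others of this group. AT2G47540, of a pollen Ole e 1 and extensin family, had 591 and 672 in BL+Kyn against 617 and 690 in mock at 12 h. At 24 h it had 392 and 599 in BL+Kyn against 620 and 571 in mock, which overlapped, and at 48 h 125 and 240 against 639 and 574. AT1G24620, an EF-hand calcium-binding protein gene, had 199 and 272 in BL+Kyn against 254 and 248 in mock at 12 h, and 33.5 and 115 against 295 and 209 at 48 h.

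The promoter window of AT4G25160, at chr4:12907597-12907896 on the minus strand, is the one among the 6 genes called at 12 h that held an auxin response element. It is marked in capitals as the reverse complement of TGTCTC, which begins 135 bases before the start.
AT4G25160: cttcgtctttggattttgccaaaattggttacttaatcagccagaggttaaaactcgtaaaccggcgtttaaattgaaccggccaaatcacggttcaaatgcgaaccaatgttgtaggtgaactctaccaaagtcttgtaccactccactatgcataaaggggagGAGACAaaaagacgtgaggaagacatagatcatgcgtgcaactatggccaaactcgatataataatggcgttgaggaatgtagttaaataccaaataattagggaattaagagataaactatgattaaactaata
The same 6 letters were found on either strand in 5 of 38 member windows (13.2%) and in 12.5% of the windows of genes with a mean of at least 20.

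The 4 members with wall or secreted products had similar BL+Kyn differences at 12 h, from -0.85 to -0.67, and 1 was called. EXPA15 (chr2:916854-918643) encodes an alpha-expansin. At 12 h it had 226 and 236 in BL+Kyn, 267 and 386 in BL, 270 and 399 in Kyn, and 337 and 408 in mock. Both BL+Kyn libraries were the lowest of the 8. It fell by 0.68 (SE 0.18, limma adjusted p = 0.0338), a call lost when the 12 h libraries were fitted alone (same difference, adjusted p = 0.121). At 24 h EXPA15 had 279 and 221 in BL+Kyn, 545 and 543 in BL, 593 and 628 in Kyn, and 789 and 690 in mock, and at 48 h 287 and 318 in BL+Kyn, 559 and 552 in BL, 597 and 628 in Kyn, and 536 and 530 in mock. Over the 3 times the BL+Kyn libraries spanned 221 to 318 and the mock libraries 337 to 789. Its group also held ATLP-1, with 216 and 187 in BL+Kyn against 292 and 402 in mock at 12 h (-0.76, SE 0.23, limma adjusted p = 0.0648). The aspartyl protease gene AT1G09750 and PLA2-BETA had -0.85 and -0.67 at 12 h, with adjusted p of 0.214 and 0.339 (limma).

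The window before EXPA15, at chr2:918672-918971 on the minus strand, held a telo-box (AAACCCT, in capitals), a motif known from promoters of genes of dividing cells.
EXPA15: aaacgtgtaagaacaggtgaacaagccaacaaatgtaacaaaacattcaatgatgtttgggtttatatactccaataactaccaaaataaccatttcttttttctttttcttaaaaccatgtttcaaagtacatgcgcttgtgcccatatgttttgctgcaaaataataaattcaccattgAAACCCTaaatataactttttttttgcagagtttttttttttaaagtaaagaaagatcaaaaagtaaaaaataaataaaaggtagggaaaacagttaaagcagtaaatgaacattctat

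Nucleolar and ribosomal proteins gave 5 members, a grouping made by hand after the values were seen. HDT4 and HDA3 (also HD2A) are plant-specific histone deacetylases of the nucleolus, SWA1 and the DEAD-box helicase AT5G54910 act in ribosome assembly, and RPL3B is a protein of the large ribosomal subunit. Their BL+Kyn differences at 24 h ran from -1.2 to -0.96 and at 48 h from -1.15 to -0.92, times that the choice used. At 12 h they ran from -0.43 to -0.10, and 0 of 5 were called by limma (1 at an unadjusted p under 0.05, HDT4).

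HDT4 (chr2:11861994-11863884) had 356 and 319 in BL+Kyn, 527 and 665 in BL, 479 and 450 in Kyn, and 409 and 502 in mock at 12 h. BL+Kyn was lowest, and BL was above both mock libraries. Against BL at 12 h HDT4 fell by 0.81 (SE 0.18, limma adjusted p = 0.0179). This call was lost without the 2 green-tissue libraries or BL replicate 2 alone (-0.64 in both), without BL+Kyn replicate 1 (-0.89) and without BL+Kyn replicate 2 (-0.73), fits with 1 library in a group. At 24 h HDT4 had 414 and 363 in BL+Kyn, 673 and 761 in BL, 614 and 738 in Kyn, and 880 and 903 in mock. At 48 h it had 315 and 508 in BL+Kyn, 695 and 718 in BL, 659 and 814 in Kyn, and 719 and 801 in mock.

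The level of the 5 genes at 24 h minus that at 12 h had a median of -0.04 in BL+Kyn, 0.31 in BL, 0.43 in Kyn and 0.74 in mock on the log2 scale. Over all genes with a mean of at least 20 the medians lay between -0.01 and -0.00. RPL3B showed the same course, with 875 and 745 at 12 h and 793 and 726 at 24 h in BL+Kyn, against 905 and 1061 at 12 h and 1624 and 1580 at 24 h in mock. The gap at 24 h lay between BL+Kyn libraries near their 12 h level and mock libraries higher than at 12 h. The 24 h values of both groups chose these genes, which favours high mock values there. The rise in mock is therefore a description and was not tested. HDA3 had 1038 and 991 in BL+Kyn against 2179 and 2040 in mock at 24 h, and 643 and 1376 against 1951 and 1961 at 48 h, where its BL+Kyn replicates stood far apart.

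Relatives outside the list had smaller effects over 24 h and 48 h. HD2B and HD2C, the other 2 genes of the HD2 family, had combined effects of -0.73 and -0.77, and AT1G43170, the paralogue of RPL3B, had -0.60. These 3 genes were looked up after the values were seen. Reads of such close copies could be split between them in counting. The 334 genes tested whose annotation names a ribosomal protein, rpl20 among them but not RPL3B, had a median combined effect of -0.53. At 12 h 7 of these 334 fell in BL+Kyn and 2 rose (limma), no more than the 2.47% and 2.55% of all genes tested.

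Site II (TGGGCC), a motif known from promoters of ribosomal protein and cell cycle genes, was found in the windows of 3 of these 5 genes, SWA1, RPL3B and AT5G54910, and in 18.3% of the windows of genes with a mean of at least 20. Those of SWA1 (chr2:19638679-19638978, minus strand) and RPL3B (chr1:22723153-22723452, minus strand) are shown with site II in capitals on either strand. SWA1 also holds an E-box (CATGTG, reverse complement, at its 5' end) and RPL3B a W-box (TTGACC, after site II).
SWA1: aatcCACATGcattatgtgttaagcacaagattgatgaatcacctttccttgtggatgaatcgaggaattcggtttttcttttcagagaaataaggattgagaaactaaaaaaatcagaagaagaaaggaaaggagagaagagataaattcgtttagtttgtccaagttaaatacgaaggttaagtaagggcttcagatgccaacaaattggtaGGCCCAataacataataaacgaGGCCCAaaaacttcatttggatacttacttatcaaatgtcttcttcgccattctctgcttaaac
RPL3B: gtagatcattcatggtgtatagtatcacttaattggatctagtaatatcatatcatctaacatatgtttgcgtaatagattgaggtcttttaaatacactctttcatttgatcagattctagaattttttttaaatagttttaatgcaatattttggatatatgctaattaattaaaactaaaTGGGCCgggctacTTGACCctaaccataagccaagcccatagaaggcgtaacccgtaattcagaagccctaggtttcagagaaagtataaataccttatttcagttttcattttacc
The telo-box was in none of the 5 windows.

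Nuclear genes annotated to mitochondria or to organelle RNA gave 7 members. AT1G23100 (chr1:8195776-8196475), of the GroES type that caps chaperonins, had 414 and 394 in BL+Kyn, 561 and 590 in BL, 606 and 614 in Kyn, and 548 and 737 in mock at 12 h. Its BL+Kyn libraries were the lowest and its mock libraries the most spread. It fell by 0.65 (SE 0.17, limma adjusted p = 0.0345), a call lost with no filter on low values (adjusted p = 0.0519). At 24 h it had 333 and 432 in BL+Kyn, 523 and 570 in BL, 652 and 701 in Kyn, and 747 and 759 in mock, and at 48 h 273 and 424 in BL+Kyn, 712 and 748 in BL, 632 and 725 in Kyn, and 708 and 751 in mock.

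AT1G62150 (chr1:22970029-22971764), of the mitochondrial transcription termination factor family, was low everywhere. At 12 h it had 8.96 and 10.2 in BL+Kyn, 21.8 and 22 in BL, 27.1 and 29.4 in Kyn, and 25.7 and 30.5 in mock. The groups of BL+Kyn and BL did not overlap each other or mock. It fell by 1.45 (SE 0.33, limma adjusted p = 0.0135), and against Kyn by 1.47 (SE 0.33, adjusted p = 0.0457, limma). DESeq2 gave an adjusted p of 0.0503 for BL+Kyn against mock, within a range of 0.0136 to 0.126 over 18 alternatives. At 24 h it had 18.0 and 17 in BL+Kyn against 29.5 and 22.3 in mock, and at 48 h 8.64 and 11.1 against 29.0 and 44.1.

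The other 5 were not called at 12 h. LETM1, a protein of the inner mitochondrial membrane, and the RNA helicase gene AT5G39840 had -0.41 and -0.44 at 12 h and -1.25 and -1.42 at 24 h in BL+Kyn. The repeat protein gene AT3G13160 had -0.56 at 12 h and -1.05 at 24 h. MEF22, an RNA editing factor, had 0.13 at 12 h and rested at 24 h on one library, with 13.5 and 2.83 in BL+Kyn against 28.0 and 18.6 in mock. AT5G39350, a repeat protein gene, had 22.7 and 32.0 in BL+Kyn against 18.0 and 12.7 in mock at 12 h, and so lay above mock there.

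The windows before AT1G23100 (chr1:8195476-8195775, plus strand) and AT1G62150 (chr1:22971772-22972071, minus strand) are shown because both genes fell at 12 h and both hold site II. AT1G23100 has 2 adjoining copies, preceded by a W-box and AACGG, the core of a mitosis-specific element. AT1G62150 has 1 copy as the reverse complement between 2 telo-boxes.
AT1G23100: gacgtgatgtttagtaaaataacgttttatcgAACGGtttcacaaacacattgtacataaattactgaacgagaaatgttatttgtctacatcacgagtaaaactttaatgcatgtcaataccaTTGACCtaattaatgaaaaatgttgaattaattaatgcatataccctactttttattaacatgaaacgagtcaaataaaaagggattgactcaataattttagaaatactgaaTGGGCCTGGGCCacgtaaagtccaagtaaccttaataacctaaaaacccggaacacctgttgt
AT1G62150: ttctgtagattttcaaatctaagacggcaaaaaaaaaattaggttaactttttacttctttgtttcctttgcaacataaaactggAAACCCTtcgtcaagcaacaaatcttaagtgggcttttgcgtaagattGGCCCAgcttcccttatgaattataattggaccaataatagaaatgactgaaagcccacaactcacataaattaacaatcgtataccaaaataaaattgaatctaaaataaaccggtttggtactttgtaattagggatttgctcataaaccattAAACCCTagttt
Telo-box and site II occurred together in 1 of 38 member windows (2.63%) and in 2.11% of the windows of genes with a mean of at least 20.

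The plastid genome gave 3 members. FtsHi1, a nuclear gene for a plastid protein, was also counted here. The feature named trnK (chloroplast, 1717 to 4347) had 302 and 340 in BL+Kyn, 699 and 740 in BL, 676 and 838 in Kyn, and 737 and 555 in mock at 24 h. At 48 h it had 333 and 347 in BL+Kyn, 781 and 745 in BL, 548 and 604 in Kyn, and 706 and 953 in mock. At 12 h its replicates differed far more than its groups, with 3385 and 511 in BL+Kyn, 2728 and 1369 in BL, 570 and 1721 in Kyn, and 2959 and 529 in mock. The matK gene lies inside trnK, and the strand counted is not given in the sources used here, so the reads cannot be assigned between them.

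rpoC2, a subunit of the plastid RNA polymerase, had 245 and 144 in BL+Kyn against 252 and 130 in mock at 12 h, and 75.8 and 53.9 against 129 and 150 at 24 h. rpl20, a plastid ribosomal protein gene, had 176 and 8.97 in BL+Kyn against 108 and 5.08 in mock at 12 h, and 2.16 and 31.9 against 19.5 and 24.9 at 48 h. Plastid messages mostly lack long poly(A) tails, on which the library method relies. Of 41 plastid-encoded genes with a mean of at least 20, 38 had a combined effect below 0, with a median of -0.33, and 3 reached -1.0. These 3 are the members, and the set of plastid-encoded genes was chosen after the values were seen. Over all genes tested the median combined effect was 0.00. The photosynthesis genes of the nucleus had a median combined effect of 0.59 over the 12 listed. Without the plastid-encoded genes 39 members remained, with a median of -0.43 at 12 h.

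The last 11 members had other or unknown roles. MC8, a metacaspase, had 17.9 and 6.41 in BL+Kyn, 71.5 and 37.9 in BL, 39.5 and 12.1 in Kyn, and 32.1 and 40.7 in mock at 12 h (-1.65, SE 0.61, limma adjusted p = 0.135). Its BL+Kyn libraries overlapped Kyn but not mock. GSTU28 had 94.4 and 83.3 in BL+Kyn against 82.3 and 82.6 in mock at 12 h, and 17.3 and 34.7 against 124 and 110 at 48 h.

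AT5G60730, annotated as an anion-transporting ATPase, had 172 and 140 in BL+Kyn against 226 and 254 in mock at 12 h (-0.62, SE 0.24, limma adjusted p = 0.152). A further 7 were AT5G48650, AT5G17270, AT5G09240, AT5G21050, AT4G39790, AT3G19440 and the unannotated feature RLFS_014380, whose 12 h differences ran from -0.64 to 0.56. Among all 42, 17 had means of 20 to 50 and 15 had fewer than 10 reads in at least 1 library, so their single values carry wide counting error.

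Set directly against each single treatment at 12 h, 2 members fell relative to BL, HDT4 and AT4G25160 (1.76% of all genes did), and 2 relative to Kyn, PLT2 and AT1G62150 (0.301%). At an unadjusted p under 0.05 there were 18 members against BL and 11 against Kyn, beside 16.5% and 15.6% of all genes in either direction. Without the 2 green-tissue libraries, which leaves 1 library in each single treatment, 0 of these 4 calls remained by limma, with differences of -1.58 for AT4G25160 and -0.64 for HDT4 against BL, and -1.43 for PLT2 and -1.41 for AT1G62150 against Kyn. With all libraries they were -1.24, -0.81, -1.55 and -1.47. Over 18 alternatives the call against Kyn was kept in 15 for PLT2 and in 2 for AT1G62150, and the call against BL in 8 for AT4G25160 and in 14 for HDT4. In the interaction, the BL+Kyn difference minus the BL and the Kyn differences, 0 members and 0.0% of all genes were called by limma, and 0 members by edgeR and by DESeq2. At an unadjusted p under 0.05 there were 5 members by limma, 5 by edgeR and 4 by DESeq2, against 8.82% of all genes in either direction by limma. The 5 by limma, a number near that background, were HDT4 (-0.85, SE 0.26), RPL3B (-0.86, SE 0.29), LETM1 (-0.76, SE 0.28), AT5G54910 (-0.76, SE 0.29) and AT1G62150 (-1.13, SE 0.47). The member median was -0.43, against -0.01 over all genes. Below 0 lay 38 of 42 members, beside 49.5% of genes with a mean of at least 20. These comparisons share the BL+Kyn libraries and, for the interaction, all 12 h groups.

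Among all 462 genes with a combined effect of at most -1.0, the members made up 9.09%. Kyn alone was below -0.3 in 156 of the others and BL within bounds, and 65.4% of those fell in BL+Kyn at 12 h, with a median of -1.67. BL alone was below -0.3 in 68 with Kyn within bounds (20.6% fell, median -0.71), and both were below -0.3 in 115 (39.1%, median -1.29). In 81 genes BL or Kyn lay above 0.3 (61.7%, median -1.74). The members had the smallest share called at 12 h, 14.3%, and the smallest median combined effect over 24 h and 48 h, -1.11, against -1.21 to -2.11. The differences between these sets were not tested.

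Shares of the 12 motifs were counted in the windows of the 38 nuclear members with a RefSeq start and of 15834 genes with a mean of at least 20, given in that order. Site II was in 21.1% against 18.3%, the telo-box in 13.2% against 7.43%, the E-box CATGTG in 13.2% against 13% and CACTTG in 13.2% against 11.2%. The G-box (CACGTG) was in 5.26% against 8%, the W-box in 13.2% against 14.1%, AACGG in 23.7% against 24.9% and AGATAT in 21.1% against 26.1%. The brassinosteroid response element CGTGCG was in 3 windows, those of AT2G47540, AT5G48650 and EXO70C2 (7.89% against 2.04%), TGTCGG in 0 (against 5.55%) and the GCC-box (GCCGCC) in 1, MC8 (2.63% against 2.31%). Both strands were searched, and a match is a description of the letters in the window.

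In the authors' deposited table of each treatment against mock, 6 members had an adjusted p under 0.05 and a lower value in BL+Kyn at 12 h, where 2.96% of all genes did. They were PLT2, RSL2, AT4G25160, EXPA15, AT1G23100 and ATLP-1 in the authors' deposited table, with ATLP-1 in place of AT1G62150. At 24 h and 48 h, which chose the members, the authors' deposited table had 22 (8.51% of all genes) and 30 (9.33%). For BL it had 0 at each time (0.237%, 0.369% and 0.312% of all genes), with an adjusted p for only 35 of the 42 members at 24 h, and for Kyn the authors' deposited table had AT4G25160 at 12 h (1.37%) and 0 at 24 h and 48 h (0.951% and 1.25%).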

How the data were processed

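RNA was measured in 24 root libraries, 12 groups of 2, numbered as the labels number them. Per the submitters' processing notes, the authors' tools were HTSeq 0.6.1 and DESeq2 1.18.1, TopHat2 2.1.0, and FastQC 0.11.5, cutadapt 1.10 and Trim Galore, with the build TAIR10, and the strand counted and any collapse of molecular identifiers are not given in the sources used here. The deposited table holds normalized counts (a signal scaled per library), and the authors' deposited comparisons hold log2 fold changes, signed fold scores and p-values. Division by the smallest step gave whole reads for 100.0% of values (tolerance 0.1 of a read).

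The members and gene lists were chosen with earlier results of these data known, and roles were assigned by hand after the values were seen. Genes named by rule were the 10 with the lowest combined effect, up to 10 with the smallest p in BL+Kyn at 12 h and up to 5 in the interaction, the 5 with the highest mean, members of the lists, the 3 nearest the threshold on each side, up to 3 called in a single treatment and up to 5 above mock at 12 h. Other members were named after their values were seen. The 12 h contrasts were fitted with limma 3.58.1 (R 4.3.3) on log2(value + 1) for 18948 genes with a mean of at least 5, over 12 group means with 12 residual degrees of freedom and Benjamini-Hochberg adjustment. An exact permutation test of 2 libraries against 2 could not go below p = 0.333. edgeR 4.0.16 and DESeq2 1.42.0 on the recovered reads, other pseudocounts and filters, a replicate block and each library left out in turn were alternatives. The limma and edgeR steps were tested on simulated data. p-values measure only the spread between these libraries.

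Promoter windows of 300 bases were read from RefSeq's TAIR10.1 assembly, to which 41 of 42 members were matched. Values of 24 columns were used, and 0 columns of per-sample values were left out. 2 members whose values enter the counts and medians are not reported here by name.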

Additional observations from a re-analysis of the deposited data

Results flagged for a closer look

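In 2 members both BL+Kyn libraries lay above the mock mean at 12 h and below it at the later times. For AT5G39350, a repeat protein gene, the BL+Kyn difference was 0.80 at 12 h, with 22.7 and 32.0 in BL+Kyn against 18.0 and 12.7 in mock, and -1.12 at 24 h and -2.15 at 48 h. For AT5G17270, of the prenylyltransferase superfamily, it was 0.56 at 12 h, with 31.7 and 23.1 in BL+Kyn against 23.1 and 14 in mock, which overlapped, and -1.54 at 24 h and -0.95 at 48 h. The later times chose these genes for low values, and the difference between times was not tested.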

How the results depend on the processing

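The number of members depended on the rule. Against 42, it was 76 with a mean of at least 5, 25 with a mean of at least 50, 20 and 110 with single effects within 0.2 and 0.5, 195 and 12 with a combined effect of at most -0.8 and -1.2, 3 with the bounds met at each time, and 64 with libraries centred on their medians. Leaving out 1 library gave 27 to 179 genes. Correlations by replicate number ran from -0.19 to 0.59 over 66 pairs of groups, with a median of 0.04 and 20 over 0.1. The main fit held no replicate term, and an effect shared by libraries of the same replicate number was not tested. With replicate 1 alone the rule found 178 genes and with replicate 2 alone 47, and with a replicate block 6 members fell at 12 h and 1094 genes were called, against 952 without it.

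Leaving out each 12 h library gave 1 to 6 members lower than mock, 0 to 2 lower than BL, 0 to 2 lower than Kyn, 313 to 945 genes called in all and a member median of -0.63 to -0.20. A lone library is then assumed to vary like the other groups. Relative to Kyn, 1 member was called with a pseudocount of 5, no filter, a mean of at least 20, edgeR, centring or 12 h libraries alone, 4 with DESeq2 and 0 without the green-tissue libraries. Relative to BL, 1 was called with no filter, 4 with DESeq2 and 0 without those libraries. DESeq2 called 1 in Kyn against mock. The causes were not tested. Leaving out the plastid-encoded genes, chosen after seeing the data, kept all 6 calls. No called difference changed sign in these alternatives. Among members not called, 18 values of 12 members did, 7 without BL+Kyn replicate 1, 3 without BL+Kyn replicate 2 and 8 without mock replicate 2 of 12 h, and rpl20, at 0.71 with all libraries, was at -1.37 without BL+Kyn replicate 1 or without mock replicate 2. Members with few reads and 2 libraries a group limit what 12 h could show.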
